A study of Mus musculus with 14 samples.

Results

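The genes described here are 34 genes that mark macrophages, the tissue-resident phagocytes of the pancreatic islet, chosen by name and read from the gene count table of newborn mouse islets. The table holds 54532 genes, of which 18732 had enough reads to be tested, and all 34 macrophage genes were found once each and were among those tested. The islets came from wild-type C57BL/6JRj mice on the day of birth (P0), from pups of either sex, with the pancreases of several pups pooled for each sample. They were cultured in RPMI 1640 medium with 11 mmol/l glucose and exposed for 1 day either to DMSO, the solvent, or to 10 µmol/l adjudin, a small molecule that the study examined for effects on beta cells. There were 7 RNA-seq libraries per treatment, and libraries with the same replicate number carried the same batch label in both treatments, so that they formed 7 pairs. No sorting step separated macrophages from the other cells, and in such bulk libraries fewer macrophages and less macrophage RNA per cell cannot be told apart.

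Macrophages are the main immune cells of the islet. They arise from blood progenitors and from embryonic precursors, depend on signalling through the receptor for colony-stimulating factor 1 (Csf1r) and on the transcription factor PU.1 (Spi1), and take up and digest dead cells and debris in lysosomes. They also make the complement starter C1q, display peptides on major histocompatibility complex (MHC) class II molecules and release growth factors and cytokines. In rodents, they have been linked to the growth of the islet around birth.

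The libraries held from 26475749 to 36900026 assigned reads, apart from the library DMSO replicate 7 with 108865228. Every macrophage gene had at least 33 reads in every library, so none of the values below rests on single reads. Levels are given as CPM, the count of a gene relative to the size of its library, after scaling by trimmed mean of M values (TMM). Where genes are compared with each other they are given as TPM, in which counts are first divided by gene length. Markers of the beta cell stood apart in replicate 5: the 10 genes summed to 26.7 CPM in the DMSO and 1308 CPM in the adjudin library, where the other 12 libraries had 4913 to 18003 CPM. The macrophage genes of these 2 libraries were within the range of the others, and results without them are given below.

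All 34 genes had reads in all 14 libraries. Presence alone does not show that the reads came from macrophages, and several of the genes are shared with other cells, as described below. On the scale per gene length, averaged over the 14 libraries, the lysozyme gene Lyz2 was highest at 3669 TPM and stood at rank 13 among 22046 protein-coding genes. It was followed by the C1q chain gene C1qa (827 TPM), the cysteine protease gene Ctss (685 TPM), C1qb (656 TPM) and Cd74 (586 TPM), the invariant chain of MHC class II. Csf1r, the receptor that macrophages need for survival, was at 82.8 TPM, Adgre1, which encodes the F4/80 antigen, at 38.3 TPM and Cx3cr1, the fractalkine receptor, at 28.8 TPM. The sialic acid receptor gene Siglec1 (9.96 TPM), the scavenger receptor gene Cd163 (1.72 TPM) and the folate receptor gene Folr2 (4.55 TPM) were the 3 lowest. Neighbours in this order overlapped in their library values, whereas Lyz2 and C1qa did not: the lowest Lyz2 value was 1619 TPM and the highest C1qa value 1115 TPM. Lyz2 lies beside its near-identical copy Lyz1, and reads that fit both could have been split or dropped when counted, so its level is uncertain.

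**Figure D1:**
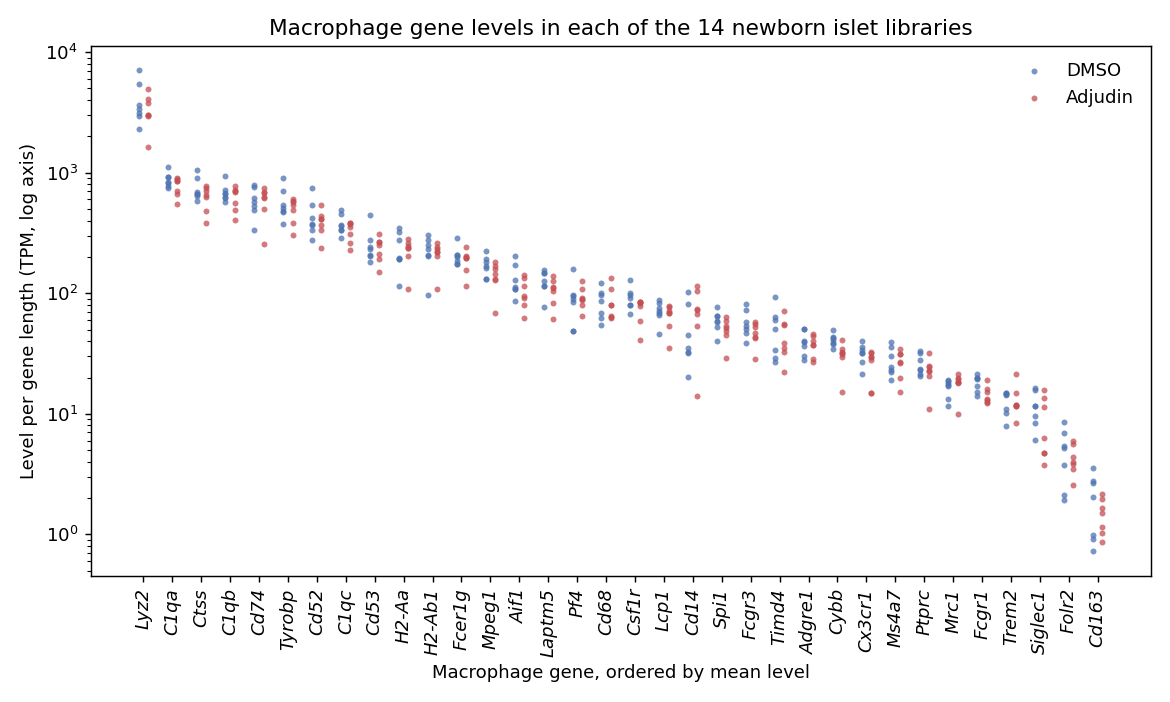
Level per gene length (TPM, log axis) of each of the 34 macrophage genes in the 7 DMSO and the 7 adjudin libraries, 1 point per library, ordered by mean level. The genes span from 3669 TPM for Lyz2 to 1.72 TPM for Cd163, and the points of both treatments overlap for every gene.

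The first question was whether adjudin changed the macrophage genes of the newborn islet. No macrophage gene passed an adjusted p value of 0.05 between adjudin and DMSO (0 of 34, quasi-likelihood test of edgeR, adjusted over all tested genes by the Benjamini-Hochberg method), where 0.00534% of all tested genes did. The values of both treatments overlapped for all 34 genes, against 0.032% of all genes for which they did not. Before adjustment, 2 of the 34 were under 0.05, both lower with adjudin, against 1.01% of all genes. These were Cybb, the catalytic subunit of the phagocyte NADPH oxidase, and Fcgr1, the high-affinity receptor for IgG. The log2 fold change was below 0 for 29 of the 34 genes, against 54.7% of all genes, with a median of -0.21 against -0.013. The genes move together from library to library, so that these 29 are not independent of each other. The 34 genes were also chosen with earlier results of these data known, so their comparison with all genes is a description alone. The size of the median changed with single libraries: it was -0.10 without DMSO replicate 1, with 24 genes below 0, and -0.13 without adjudin replicate 4. Without replicate 5 it was -0.26.

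With the replicate number as a block in the same test, still none of the 34 genes was called, and 0% of all genes were. At unadjusted p under 0.05, 9 of the 34 were now lower and none higher, against 2.38% of all genes that were lower at this level. The 9 genes were Siglec1, Cybb, Aif1, Csf1r, Cx3cr1, Fcgr1, Mpeg1, Fcgr3 and Ctss. DESeq2 with the block called 0.561% of all genes but none of the 34, the lowest adjusted p being 0.122 for Siglec1. It gave 11 genes at unadjusted p under 0.05, all lower, against 2.47% of all genes, with Laptm5 and Spi1 added to the same 9. DESeq2 without the block and limma-voom each gave 2 genes at that level and none after adjustment.

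**Figure D2:**
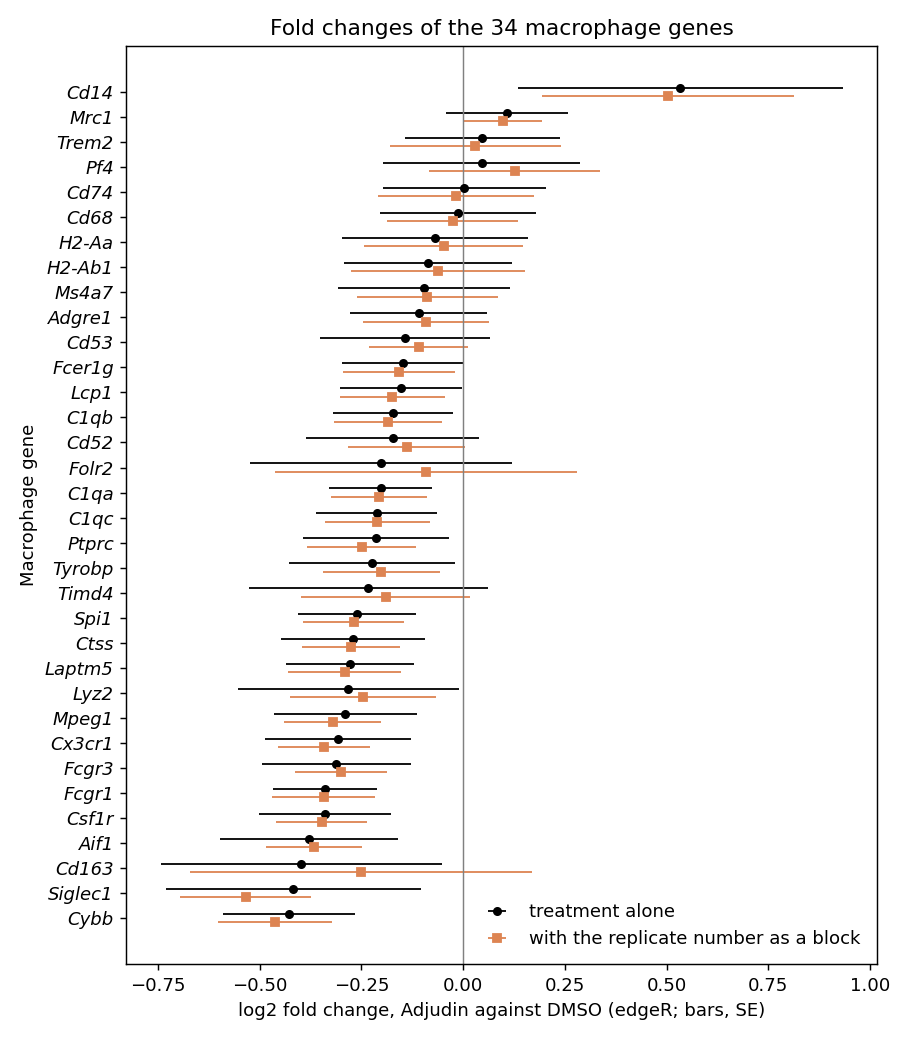
The log2 fold change (adjudin against DMSO) of the 34 macrophage genes with its SE, from edgeR with treatment alone (black circles) and with the replicate number as a block (orange squares). Cybb (-0.43 ± 0.16) and Siglec1 (-0.42 ± 0.31) are the lowest, Cd14 (0.53 ± 0.40) is the highest, and 29 of the 34 lie below 0 without the block.

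The direction differed between pairs of libraries. In pair 1, 29 of the 34 genes were lower with adjudin than with DMSO, against 51.2% of all genes, and in pair 2 it was 30 against 50.6%. Pair 3 had 30 lower genes, against 50.5% of all genes, and pair 4 had 28, against 50.6%. In pairs 5, 6 and 7, by contrast, 13, 13 and 14 genes were lower, fewer than the 21, 21 and 20 that were higher. The share of all genes that were lower was 51.6% in pair 5, 49.6% in pair 6 and 52.8% in pair 7. The median difference over the 34 genes was -0.44, -0.30, -0.41, -0.64, 0.12, 0.072 and 0.032 on the log2 CPM scale in pairs 1 to 7. Of the 238 differences, 157 were below 0. Cybb alone was lower in all 7 pairs, and 7 genes (Csf1r, Cx3cr1, Fcgr1, Fcgr3, Laptm5, Lcp1 and Siglec1) were lower in 6 of them. None of the 34 genes was lower in fewer than 3 pairs. How many of all tested genes reached these numbers of pairs was not counted, so the counts are descriptions alone.

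**Figure D3:**
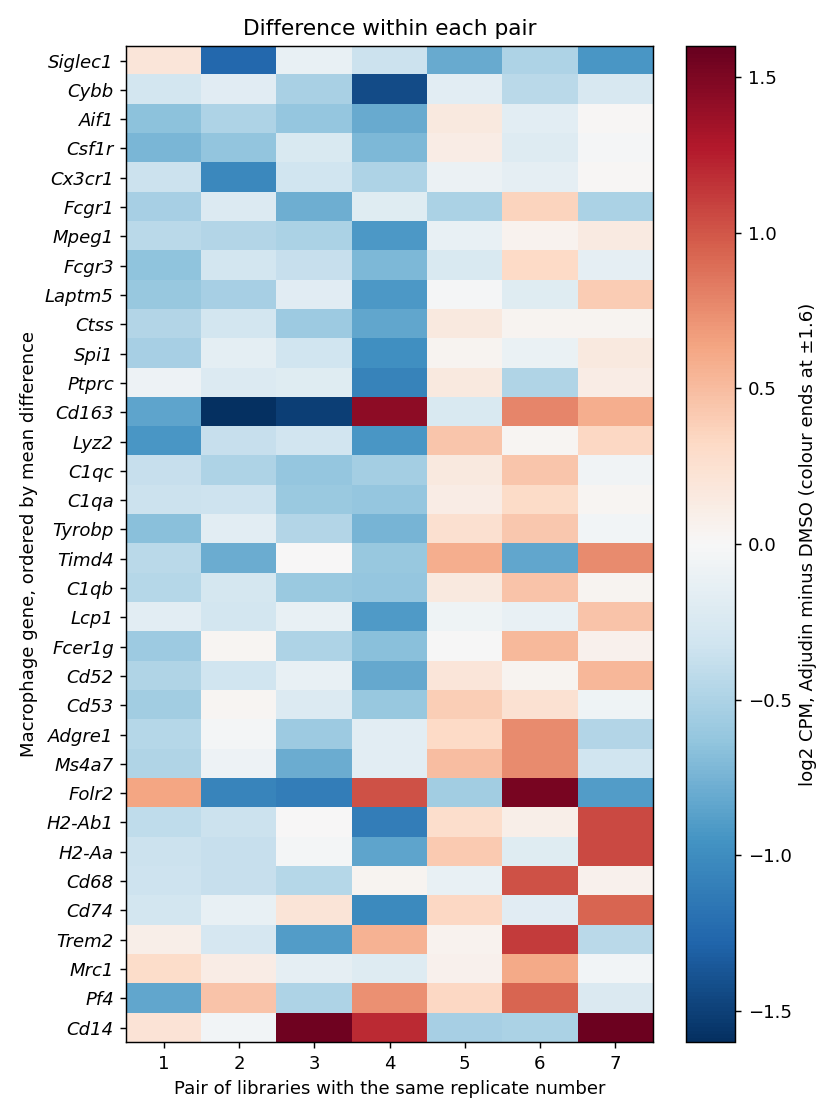
Difference in log2 CPM (adjudin minus DMSO) within each of the 7 pairs of libraries, 1 row per macrophage gene, blue where the adjudin library was lower. Pairs 1 to 4 are mostly blue (28 to 30 of 34 genes lower), pairs 5 to 7 are mixed (13 or 14 lower), and Cybb is the only gene that is blue in all 7.

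The summed level of the 34 genes showed the same split. It was 6460.4 ± 1718 CPM (SD, n = 7) with DMSO and 5564 ± 1240.4 CPM (SD, n = 7) with adjudin, a ratio of 0.861. The difference was smaller than the SD between single libraries of either treatment, which takes no account of the pairs. The DMSO libraries reached from 4888 to 9861 CPM with a median of 5875, and the adjudin libraries from 3230.0 to 6962 with a median of 5707. DMSO replicate 1 was the highest of all 14 and adjudin replicate 4 the lowest. Within pairs the ratio was 0.665, 0.797, 0.807, 0.580, 1.15, 1.04 and 1.18 in pairs 1 to 7, below 1 in the first 4 and above 1 in the other 3. The SD of the ratio over the pairs was 0.238. Lyz2 alone made up 31.6% of the sum.

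**Figure D4:**
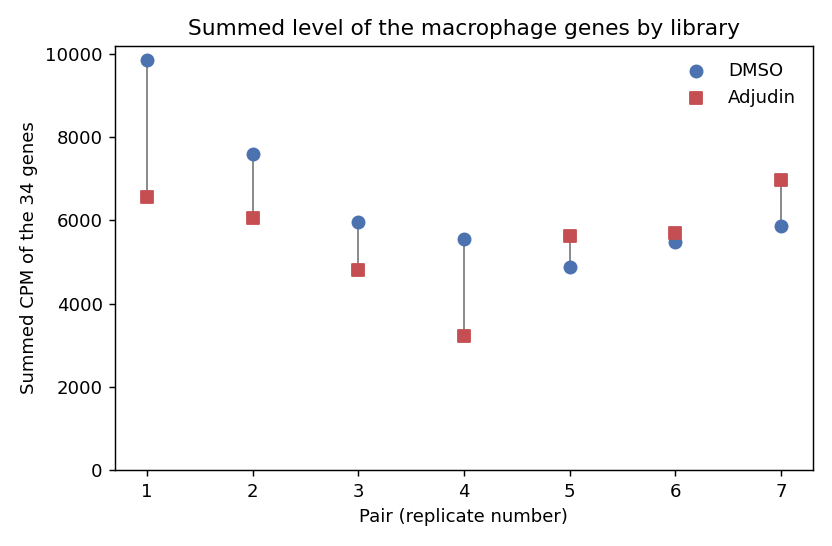
Summed CPM of the 34 macrophage genes in each library, by pair, with DMSO as circles and adjudin as squares joined by a line. The adjudin library is lower in pairs 1 to 4 and higher in pairs 5 to 7, and DMSO replicate 1 (9861 CPM) stands above all other libraries.

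Csf1r (ENSMUSG00000024621, chr18:61105572-61132149, coordinates on GRCm38/mm10 here and below) encodes the receptor for CSF1 and interleukin-34. Csf1r lay between 132 and 252 CPM in the DMSO libraries (median 179) and between 80.0 and 164 CPM in the adjudin libraries (median 152). The highest value was that of DMSO replicate 1, and the log2 fold change was -0.34 ± 0.16 without and -0.35 ± 0.11 with the block (edgeR, adjusted p = 1.000 and 0.768). It was lower with adjudin in pairs 1 to 4, 6 and 7, by 0.022 to 0.73 on the log2 scale, and higher by 0.12 in pair 5. Spi1 (ENSMUSG00000002111, chr2:91082390-91115756), which encodes PU.1, the transcription factor that sets the myeloid fate, was less abundant. Spi1 lay between 46.2 and 83.3 CPM in the DMSO libraries (median 62.7) and between 31.5 and 64.5 CPM in the adjudin libraries (median 51.5), with a log2 fold change of -0.26 ± 0.15 (edgeR, adjusted p = 1.000). It was lower in 5 of 7 pairs, most in pair 4 (-0.98).

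Cybb (ENSMUSG00000015340, chrX:9435252-9487771) encodes the membrane subunit of the oxidase that makes superoxide in phagocytes. Cybb lay between 72.4 and 116 CPM in the DMSO libraries (median 94.5) and between 35.3 and 94.6 CPM in the adjudin libraries (median 69.8). Its log2 fold change was -0.43 ± 0.16 (unadjusted p = 0.0189, adjusted p = 1.000, edgeR) and -0.46 ± 0.14 with the block (adjusted p = 0.745). The within-pair differences ran from -1.43 in pair 4 to -0.17 in pair 5. In pairs 5, 6 and 7, in which most of the group was higher, Siglec1 was lower too. Without pair 3, neither Cybb nor Fcgr1 stood under 0.05 before adjustment.

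The Fc receptors bind antibody, and the adaptors Fcer1g and Tyrobp (DAP12) carry the signalling motifs for them and for other receptors. Fcgr1 (ENSMUSG00000015947, chr3:96282909-96293969) was 18.5 ± 2.96 CPM (SD, n = 7) with DMSO and 14.6 ± 2.59 CPM (SD, n = 7) with adjudin. It ranged from 14.6 to 22.5 CPM over the DMSO libraries and from 11.9 to 18.8 CPM over the adjudin libraries, with medians of 18.8 and 13.2. The log2 fold change was -0.34 ± 0.13 (unadjusted p = 0.0185, adjusted p = 1.000, edgeR), and only pair 6 was higher with adjudin (0.36). Fcgr3 lay between 25.0 and 56.8 CPM in the DMSO libraries (median 34.8) and between 19.8 and 39.6 CPM in the adjudin libraries (median 31.2). Fcgr3, a low-affinity IgG receptor, had a log2 fold change of -0.31 ± 0.18 (-0.30 ± 0.11 with the block, edgeR adjusted p = 0.854) and was likewise lower in every pair but pair 6. Fcgr3 resembles Fcgr2b in sequence, so that reads of this pair of genes may have been split in counting. Tyrobp lay between 92.9 and 244 CPM in the DMSO libraries (median 137) and between 81.7 and 163 CPM in the adjudin libraries (median 135), a log2 fold change of -0.22 ± 0.20. Tyrobp was the most abundant of this group per length, and Fcer1g was also highest in DMSO replicate 1 (101 CPM, with the other DMSO libraries at 56.4 to 70.5).

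C1qa, C1qb and C1qc encode the 3 chains of C1q, the recognition molecule of the classical complement pathway, and lie next to each other on chromosome 4 (C1qa, ENSMUSG00000036887, chr4:136895917-136898803). C1qa lay between 287 and 468 CPM in the DMSO libraries (median 353) and between 229 and 369 CPM in the adjudin libraries (median 335). C1qb lay between 233 and 408 CPM in the DMSO libraries (median 293) and between 176 and 321 CPM in the adjudin libraries (median 294). C1qc lay between 207 and 379 CPM in the DMSO libraries (median 284) and between 179.5 and 293 CPM in the adjudin libraries (median 258). The chains moved as one: their correlation across the 14 libraries was 0.97 for C1qa and C1qb, 0.96 for C1qa and C1qc and 0.95 for C1qb and C1qc (Pearson's r of log2 CPM). Their log2 fold changes were -0.20 ± 0.13, -0.17 ± 0.15 and -0.21 ± 0.15. Each was lower in pairs 1 to 4 and higher in pairs 5 and 6.

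Cd74, H2-Aa and H2-Ab1 encode the invariant chain and the alpha and beta chains of the MHC class II molecule. Of these genes, Cd74 (ENSMUSG00000024610, chr18:60803848-60812646) was the most abundant. Cd74 lay between 203 and 432 CPM in the DMSO libraries (median 312) and between 147 and 394 CPM in the adjudin libraries (median 353). Its log2 fold change was 0.0033 ± 0.20, and those of H2-Aa and H2-Ab1 were -0.069 ± 0.23 and -0.086 ± 0.21. The differences were opposite in pairs 4 and 7. In pair 4, the 3 genes differed by -1.02, -0.84 and -1.11, and in pair 7 by 0.93, 1.06 and 1.06. Among the adjudin libraries, replicate 4 was low, with 147 CPM of Cd74, where the others had 288 or more. Among the DMSO libraries, replicate 7 was the lowest, with 203 CPM. The 3 genes followed each other (r = 0.86 to 0.93) more closely than they followed the C1q genes (r = 0.39 to 0.63). The ratio of the summed class II level to the summed C1q level ranged from 0.390 in DMSO replicate 7 to 1.04 in DMSO replicate 6, and from 0.513 to 0.929 among the adjudin libraries. Class II genes are also expressed by B cells and dendritic cells, and macrophage and non-macrophage shares were not separated.

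The digestive genes of the group are Lyz2, whose product cleaves bacterial cell walls, Ctss, whose product trims the invariant chain, Mpeg1, which encodes the pore-forming perforin-2, and Cd68, a lysosomal membrane protein. Lyz2 (ENSMUSG00000069516, chr10:117277331-117282321) had the widest range in CPM. Lyz2 lay between 1089.8 and 3777 CPM in the DMSO libraries (median 1780.5) and between 859 and 2575 CPM in the adjudin libraries (median 1486). The highest 2 were DMSO replicates 1 and 2, and the log2 fold change was -0.28 ± 0.27 (edgeR, adjusted p = 1.000). Ctss lay between 287 and 576 CPM in the DMSO libraries (median 374) and between 209.9 and 416 CPM in the adjudin libraries (median 338). Ctss had a log2 fold change of -0.27 ± 0.18 and -0.28 ± 0.12 with the block (adjusted p = 0.881). Mpeg1 lay between 227 and 394 CPM in the DMSO libraries (median 291) and between 119.8 and 301 CPM in the adjudin libraries (median 234). Mpeg1 stood at -0.29 ± 0.18 (-0.32 ± 0.12 with the block, edgeR adjusted p = 0.854) and was lower in 5 of 7 pairs, with the lowest difference in pair 4 (-0.92). Cd68 differed little on average (-0.013 ± 0.19), with a difference of 1.02 in pair 6 against -0.46 in pair 3.

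Ptprc (CD45), Cd52, Cd53, Laptm5, Lcp1 and Aif1 are found in most leukocytes or in several kinds, so they do not mark macrophages alone. Cd52, a small surface glycoprotein, was the most abundant of them per length. Cd52 lay between 141 and 358 CPM in the DMSO libraries (median 176) and between 114 and 255 CPM in the adjudin libraries (median 184). Its log2 fold change was -0.17 ± 0.21, and that of Ptprc, the tyrosine phosphatase of the leukocyte surface, was -0.21 ± 0.18. Cd53, a tetraspanin, was at 316 CPM in DMSO replicate 1, with the other DMSO libraries at 118 to 186 CPM. Aif1 lay between 47.2 and 126 CPM in the DMSO libraries (median 69.5) and between 38.6 and 85.2 CPM in the adjudin libraries (median 55.4). Aif1, also called Iba1, is an actin-bundling protein of microglia and macrophages and had one of the larger differences (-0.38 ± 0.22, and -0.37 ± 0.12 with the block, edgeR adjusted p = 0.769). Laptm5, a lysosomal membrane protein, was lower in 6 of 7 pairs (-0.28 ± 0.16), as was Lcp1, the actin-bundling L-plastin (-0.15 ± 0.15).

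Some genes mark subsets of resident macrophages. Cx3cr1 (ENSMUSG00000052336, chr9:119901616-120069879) and Siglec1 (ENSMUSG00000027322, chr2:131069220-131086765), which encodes the sialic acid receptor CD169, were both lower in 6 of 7 pairs. Cx3cr1 lay between 38.4 and 72.6 CPM in the DMSO libraries (median 56.6) and between 27.2 and 57.1 CPM in the adjudin libraries (median 51.1). Siglec1 lay between 17.3 and 44.9 CPM in the DMSO libraries (median 29.7) and between 11.0 and 41.5 CPM in the adjudin libraries (median 16.98). Siglec1 had the largest blocked difference of the 34 genes (-0.53 ± 0.16, unadjusted p = 0.00854, edgeR adjusted p = 0.745), whereas without the block it was -0.42 ± 0.31. Cx3cr1 stood at -0.31 ± 0.18 and, with the block, at -0.34 ± 0.11 (edgeR adjusted p = 0.797). The Siglec1 difference was -1.26 in pair 2 and 0.19 in pair 1, the one pair in which it was higher. Timd4, a receptor for phosphatidylserine on dying cells, was at -0.23 ± 0.29 and moved by -0.83 in pair 6 and 0.76 in pair 7. Pf4, a chemokine also made by megakaryocytes, was the most abundant of these genes per length. Pf4 lay between 13.1 and 46.1 CPM in the DMSO libraries (median 24.2) and between 17.2 and 37.1 CPM in the adjudin libraries (median 25.0). Pf4 (0.046 ± 0.24), Mrc1, the mannose receptor (0.11 ± 0.15), and Trem2, a lipid receptor (0.047 ± 0.19), had log2 fold changes above 0 but within 1 SE of it. Adgre1 and Ms4a7, a membrane protein of resident macrophages, stood at -0.11 ± 0.17 and -0.095 ± 0.21. Cd163 lay between 1.58 and 7.55 CPM in the DMSO libraries (median 4.52) and between 1.93 and 4.42 CPM in the adjudin libraries (median 3.25). Folr2 lay between 1.12 and 5.12 CPM in the DMSO libraries (median 3.02) and between 1.45 and 3.65 CPM in the adjudin libraries (median 2.45). With these low levels, the differences of Cd163 ran from -1.94 in pair 2 to 1.43 in pair 4, and those of Folr2 from -1.11 in pair 3 to 1.52 in pair 6.

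Cd14 (ENSMUSG00000051439, chr18:36725074-36726736), the co-receptor for bacterial lipopolysaccharide, differed from the other genes. Cd14 lay between 11.9 and 57.5 CPM in the DMSO libraries (median 23.8) and between 8.36 and 70.9 CPM in the adjudin libraries (median 45.8). Its log2 fold change, 0.53 ± 0.40, was the largest of the 34 in either direction but did not pass the test (edgeR, unadjusted p = 0.201, adjusted p = 1.000). The differences were 1.56, 1.19 and 1.57 in pairs 3, 4 and 7 and -0.53 and -0.51 in pairs 5 and 6. Across the 14 libraries, Cd14 did not rise and fall with the mean of the other macrophage genes (r = -0.14), for which the other genes lay between 0.24 and 0.92. It followed the summed level of 7 ductal markers (Krt19, Krt7, Epcam, Spp1, Sox9, Cftr and Muc1) instead, with Pearson's r = 0.97 (of log2 levels) and Spearman's rho = 0.95. The permutation p was 2e-05 for both, the smallest that 100000 permutations can give, and 0.0006 after adjustment over the 30 relations computed between 2 measures and 15 marker lists. Without the 2 libraries farthest from the median, both of replicate 6, r was 0.97. It was 0.97 among the 7 DMSO and 0.98 among the 7 adjudin libraries, and 0.94 for the differences within pairs. The summed ductal level was 262 to 1549 CPM with DMSO (median 788) and 278 to 1608 CPM with adjudin (median 1192). Spp1 was the largest part of this sum, on average 488 of 869 CPM with DMSO and 547 of 1180 CPM with adjudin. Cftr, Muc1 and Sox9 averaged 1.91, 10.4 and 17.8 CPM with DMSO, and r of Cd14 with single markers was not computed. All 7 ductal markers had a log2 fold change above 0, and none was called. With the block, 3 ductal markers had an unadjusted p under 0.05 (edgeR), all higher, against 1055 of all 18732 tested genes in either direction. Which cells gave the reads of Cd14, or those of Spp1 and the other ductal markers, was not tested.

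**Figure D5:**
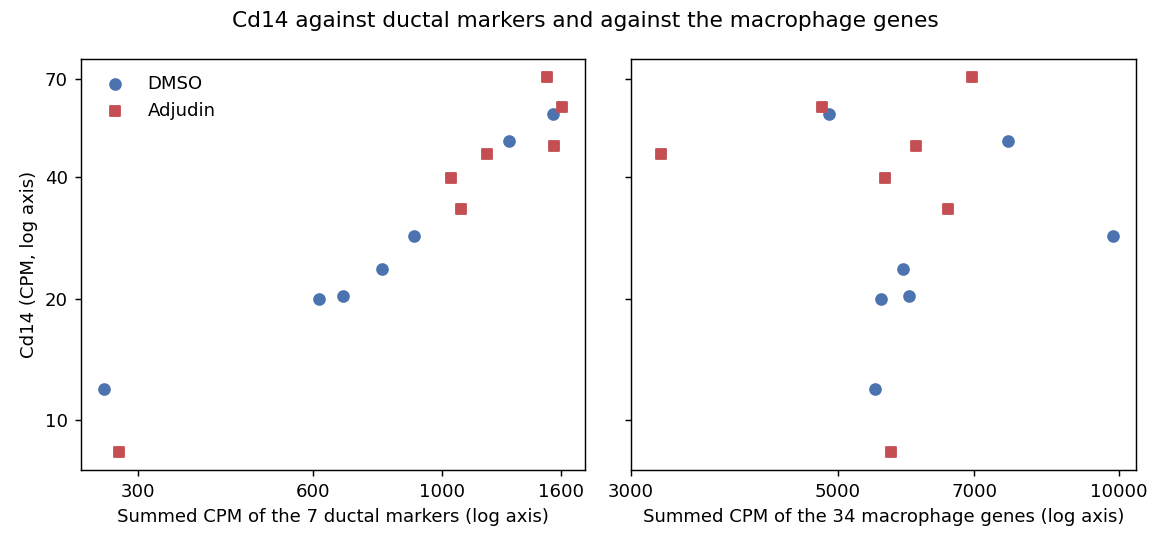
Cd14 (CPM, log axis) in each library against the summed CPM of 7 ductal markers (left, log axis) and of the 34 macrophage genes (right, log axis), with DMSO as circles and adjudin as squares. The points form a line on the left (r = 0.97) and none on the right.

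How closely the macrophage genes moved together was described by the correlation of log2 CPM over the 14 libraries, which share a batch label in pairs. The median r over all 561 pairs of genes was 0.52, and 0.53 once the mean of each treatment was removed. It dropped to 0.25 over 12 libraries, without DMSO replicate 1 and adjudin replicate 4, the libraries of the highest and the lowest sum. DMSO replicate 1 had the highest value of 24 genes, and adjudin replicate 4 had the lowest value of 23. Of the 34 genes, 18 had an r over 0.7 to the mean of the others (52.9%), against 2.40% of the other tested genes to the mean of all 34. Without those 2 libraries it was 5 of the 34 (14.7%: C1qa, C1qb, C1qc, Mpeg1 and Folr2), against 0.406%. Over all 14, C1qb, C1qa, C1qc and Mpeg1 were closest to the mean of the others (r = 0.92, 0.91, 0.91 and 0.91), and they stayed at 0.74 to 0.84 without those 2 libraries. Besides Cd14, the genes farthest from it were Siglec1 (0.24), Trem2 (0.27), Cd163 (0.31), Folr2 (0.32) and Cd68 (0.39). This order changed over the 12 libraries: Folr2 reached 0.76, Cd163 0.65 and Trem2 0.58. In turn, Spi1 went from 0.71 to -0.046, Cd74 from 0.61 to -0.027, Lcp1 from 0.59 to -0.013, Laptm5 from 0.67 to 0.042 and Cybb from 0.74 to 0.16. Over all 14 libraries, some pairs of genes followed each other closely, such as Aif1 and Ctss (r = 0.97), Aif1 and Lyz2 (0.96), Cd53 and Tyrobp (0.96), Laptm5 and Spi1 (0.95) and Adgre1 and Ms4a7 (0.93). The biological coefficient of variation from edgeR had a median of 0.255 over the 34 genes, against 0.229 over all tested genes.

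Outside the group, the 10 tested genes most like the mean of the 34 over the 14 libraries were Cyth4 (r = 0.95), Apoe (0.92), BE692007 (0.91), Adap2 (0.90), Tnfaip8l2 (0.90), Hcst (0.90), Dnase2a (0.90), Fcna (0.90), 2900052N01Rik (0.90) and March1 (0.90). Over the 12 libraries their r was 0.65 to 0.86. Apoe encodes the lipid carrier apolipoprotein E, Hcst the adaptor DAP10, Dnase2a the lysosomal nuclease that degrades the DNA of engulfed cells, and Fcna a ficolin. March1, a ubiquitin ligase that lowers MHC class II at the surface, is stored in the table under a name turned into a date and was identified by its gene ID (ENSMUSG00000036469). Apoe was by far the most abundant, at 1752 ± 444 CPM (SD, n = 7) with DMSO and 1630.4 ± 387 CPM (SD, n = 7) with adjudin. All 10 had a log2 fold change below 0, from -0.35 for BE692007 to -0.10 for Apoe, and none was called.

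Since several of these genes moved together, the DNA before their starts was searched for the core of the sites that PU.1, the product of Spi1, is known to bind. RefSeq promoter windows (GRCm38.p6, 250 bases before to 50 bases after the start) were matched by symbol for 24 of the 34 genes, leaving Adgre1, C1qa, Cd14, Cd52, Cd74, Csf1r, H2-Ab1, Siglec1, Spi1 and Tyrobp. The letters GAGGAA, on either strand, were found in windows of 15 of the 24 genes (62.5%), against 31.3% of all 27025 genes with windows of this length. The longer GAGGAAGT, which contains it, was found for 4 of the 24 (C1qc, Cd53, Ctss and Pf4), or 16.7%, against 3.69%. A match shows only that the letters are there. Other forms of the site were not searched for, so a window without these letters may still hold one. The windows of 5 genes are printed because the results turn on them: C1qb and C1qc were among the genes closest to the mean of the group, Ctss came next after Lyz2 and C1qa in level per length, Cybb had a lower level in all 7 pairs, and Lyz2 was the most abundant gene. Each runs 5′ to 3′ on the strand of the gene from 220 bases before the start to 30 bases after it, with GAGGAA or its reverse complement TTCCTC in capitals.
C1qb, chr4:136886171-136886420, minus strand: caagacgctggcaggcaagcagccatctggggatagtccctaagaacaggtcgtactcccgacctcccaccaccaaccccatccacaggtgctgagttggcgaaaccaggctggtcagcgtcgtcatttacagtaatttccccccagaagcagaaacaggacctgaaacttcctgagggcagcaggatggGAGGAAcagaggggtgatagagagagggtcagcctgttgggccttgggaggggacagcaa
C1qc, chr4:136892885-136893134, minus strand: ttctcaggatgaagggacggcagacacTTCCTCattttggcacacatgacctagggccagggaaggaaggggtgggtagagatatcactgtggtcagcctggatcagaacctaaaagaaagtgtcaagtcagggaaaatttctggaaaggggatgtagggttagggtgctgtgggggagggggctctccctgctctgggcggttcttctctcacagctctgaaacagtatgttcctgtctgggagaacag
Ctss, chr3:95526566-95526815, plus strand: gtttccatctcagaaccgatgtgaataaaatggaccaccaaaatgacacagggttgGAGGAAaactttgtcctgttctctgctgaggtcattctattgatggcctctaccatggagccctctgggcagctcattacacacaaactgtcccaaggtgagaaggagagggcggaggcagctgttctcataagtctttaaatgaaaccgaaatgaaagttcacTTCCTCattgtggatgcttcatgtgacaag
Cybb, chrX:9469295-9469544, minus strand: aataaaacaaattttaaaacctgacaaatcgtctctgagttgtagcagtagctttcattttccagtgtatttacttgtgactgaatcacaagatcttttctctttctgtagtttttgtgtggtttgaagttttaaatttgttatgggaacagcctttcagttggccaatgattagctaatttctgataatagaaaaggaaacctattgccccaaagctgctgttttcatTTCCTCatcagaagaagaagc
Lyz2, chr10:117282243-117282492, minus strand: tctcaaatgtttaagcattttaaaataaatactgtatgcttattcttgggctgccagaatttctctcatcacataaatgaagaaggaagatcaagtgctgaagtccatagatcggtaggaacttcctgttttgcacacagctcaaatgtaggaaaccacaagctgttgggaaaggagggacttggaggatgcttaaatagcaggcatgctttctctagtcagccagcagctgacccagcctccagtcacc
The printed stretch of Ctss holds the letters at 2 places, 1 of them at the start itself, those of C1qb, C1qc and Cybb at 1 place each, and that of Lyz2 at none. In Cybb, they begin 10 bases into the RefSeq transcript, counted from 1 at its first transcribed base. The Cybb gene as counted (chrX:9435252-9487771, minus strand) starts farther upstream, so its printed window lies inside the counted gene.

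Genes that act with the macrophage genes were counted in 7 further lists, none of which had a gene called by edgeR with or without the block. Without the block, 3 of their genes (Cfp, Mertk and Il1b) were under 0.05 before adjustment, as were 424 of all 18732 tested genes. DESeq2 with the block called 1 (Vegfa), against 0.561% of all genes. With the block in edgeR, 1055 of all tested genes were under 0.05 before adjustment. The share of all genes under 0.05 and lower was then 2.38%. Many genes of the 7 lists are also expressed by the mesenchymal, endothelial and endocrine cells of the islet. The counts of these lists therefore do not describe macrophages alone. Of the 6 genes for CSF1 receptor ligands and related receptors, 4 had a log2 fold change below 0 and the median was -0.059. Csf1, the main growth factor of macrophages, was at -0.061 ± 0.12, and Il34, the other ligand of Csf1r, at -0.056 ± 0.23. Of the 14 myeloid transcription factors, 13 were below 0 (median -0.11) and 2 had an unadjusted p under 0.05 with the block, both lower. These were Zeb2 (-0.20 ± 0.056 with the block, lower in 7 of 7 pairs) and Runx1 (-0.23 ± 0.061, lower in 6 of 7). Zeb2 was the most abundant of the list, followed by Maf (-0.047 ± 0.11) and Irf8 (-0.11 ± 0.19).

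Of the 7 partners of MHC class II, which include H2-Eb1 (-0.051 ± 0.19) and the class II transactivator Ciita (-0.097 ± 0.20), 4 were below 0 and the median was -0.051. Of the 13 other complement genes, 11 were below 0 (median -0.21), and properdin, Cfp, had an unadjusted p of 0.0325 (-0.34 ± 0.15, lower in 6 of 7 pairs, edgeR adjusted p = 1.000). C3, the central component and the most abundant of the list, was at -0.033 ± 0.22. Of the 16 phagocytic and clearance receptors, 11 were below 0 (median -0.20), and Mertk, a receptor for apoptotic cells, had an unadjusted p of 0.0305 (-0.34 ± 0.14, lower in 6 of 7 pairs, edgeR adjusted p = 1.000). With the block, Lrp1 (-0.28 ± 0.084) and Fcgr2b (-0.30 ± 0.13) joined it under 0.05 before adjustment. Of the 14 lysosomal genes, 8 were below 0 (median -0.020), and with the block 1 gene was under 0.05 before adjustment in each direction, Grn lower (-0.24 ± 0.084) and Ctsl higher (0.19 ± 0.078). The most abundant, Ctsb (-0.074 ± 0.14), Lamp2 (0.044 ± 0.15) and Ctsd (0.020 ± 0.12), did not stand apart from 0.

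Of 19 tested genes for factors that macrophages and other cells secrete, 12 had a log2 fold change above 0, against 45.3% of all genes, and the median was 0.21. Il1b, the cytokine interleukin-1 beta, was the one gene under 0.05 before adjustment without the block. It was 3.11 to 6.63 CPM with DMSO and 2.34 to 19.6 CPM with adjudin, so the treatments overlapped. Its log2 fold change was 0.97 ± 0.36 (unadjusted p = 0.0166, edgeR adjusted p = 1.000), and it was higher in 6 of 7 pairs. Vegfa, the vascular growth factor, had a higher level in 7 of 7 pairs (log2 fold change 0.23 ± 0.054 with the block, edgeR adjusted p = 0.584), and DESeq2 with the block called it (adjusted p = 0.0223). Vegfa is made by many cell types, beta cells among them. Igf1 (0.036 ± 0.14), Tgfb1 (-0.076 ± 0.11) and Cxcl10 (0.29 ± 0.41) were not under 0.05 before adjustment, with or without the block.

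Other blood cells varied too, and some share genes with the group. The 10 neutrophil markers (S100a8, S100a9, Ngp and others) summed to 19.9 to 2654 CPM with DMSO and 59.0 to 1485 CPM with adjudin, with 2654 CPM in DMSO replicate 1, 1576 in DMSO replicate 7 and 1485 in adjudin replicate 2. Of the 34 macrophage genes, 24 had their highest value in DMSO replicate 1 and 2 in DMSO replicate 7. The 5 monocyte markers summed to 290.0 to 645 CPM with DMSO and 269.8 to 588 CPM with adjudin, the 6 mast cell markers to 83.9 to 163 CPM with DMSO and 76.9 to 144 CPM with adjudin and the 6 dendritic cell markers to 44.3 to 78.5 CPM with DMSO and 36.0 to 70.4 CPM with adjudin. The sums were 62.9 to 134 CPM with DMSO and 35.5 to 224 CPM with adjudin for 5 B cell markers, 32.9 to 77.8 CPM with DMSO and 29.0 to 72.5 CPM with adjudin for 6 T cell markers, 36.7 to 129 CPM with DMSO and 46.3 to 89.99 CPM with adjudin for 5 natural killer cell markers and 2.17 to 259 CPM with DMSO and 2.76 to 288 CPM with adjudin for 6 erythroid markers. Single genes made up most of some sums. With DMSO, Plac8 averaged 330 of 417 CPM of the monocyte sum and Kit 102 of 129 CPM of the mast cell sum. Zbtb46 averaged 32.3 of 56.6 CPM of the dendritic cell sum. The sums of these cell types therefore rest mostly on a single gene each. The summed macrophage level correlated with all the blood cell sums at r = 0.47 to 0.70 over the 14 libraries. Once the 2 libraries farthest from the median of each sum were left out, r was -0.092 (dendritic cell) to 0.55 (mast cell). None had a permutation p under 0.05 after adjustment over the 30 relations (the lowest was 0.0797 for r and 0.124 for Spearman's rho). Their part in the macrophage values was not tested.

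Among the tissue cells, the macrophage sum had r = 0.26 with the endothelial, -0.55 with the mesenchymal, -0.27 with the acinar and -0.019 with the ductal markers. Over all libraries it was 0.12 with the beta cell, -0.053 with the alpha cell and 0.51 with the proliferation markers. Several of these depended on few libraries: without the 2 farthest from the median, r was -0.36 with the beta cell markers (without replicate 5), 0.18 with the proliferation markers and -0.29 with the endothelial markers. The proliferation markers had r = -0.098 within the DMSO and 0.92 within the adjudin libraries. No marker of the 15 lists was called by edgeR with or without the block, and none had an unadjusted p under 0.05 without it. DESeq2 with the block called 3 acinar markers (Ctrb1, Cela2a and Cpb1) and the beta cell transcription factor Pdx1, against 0.561% of all genes. The median log2 fold changes without and with the block were -0.076 and -0.014 (endothelial), -0.097 and -0.094 (mesenchymal), -0.10 and -0.10 (proliferation), 0.50 and 0.57 (beta cell), 0.54 and 0.67 (alpha cell), 0.66 and 0.71 (ductal) and 1.07 and 2.35 (acinar). The acinar, ductal and endocrine lists had medians above 0, where the macrophage genes had theirs below 0. For the blood cell lists they were -0.33 and -0.41 (monocyte), -0.12 and -0.061 (mast cell), 0.036 and 0.032 (dendritic cell), -0.29 and -0.31 (T cell), 0.27 and 0.12 (B cell) and -0.39 and -0.28 (natural killer cell). The block moved the neutrophil median from -0.96 to -0.042 and the erythroid median from -0.17 to -0.87, and the neutrophil sum was lower with adjudin in 3 of 7 pairs. The part of these shifts in the macrophage values was not tested.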

How the data were processed

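Paired-end reads (150 nucleotides) from P0 islets were mapped by the authors to the mouse genome (build GRCm38/mm10). HISAT2 2.0.5 was the aligner and featureCounts 1.5.0-p3 the counter, per the submitters' processing notes. The values the authors deposited are raw gene counts, not normalised. Each library came from a pool of several pups, and p-values measure the spread between such libraries. Whether counting used strand is not given in the sources used here. The 7 DMSO and 7 adjudin libraries were compared with edgeR 4.0.16 in R 4.3.3 (TMM scaling, filterByExpr with a minimum count of 10, robust quasi-likelihood F-test, treatment as the only term). p-values were adjusted over all 18732 tested genes by the Benjamini-Hochberg method, and a gene was called at an adjusted p below 0.05. The script was tested on simulated data. Log2 CPM used a prior count of 2, and TPM came from the gene lengths in the table.

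The replicate number was fitted as a block in an alternative test, because libraries with the same number carry the same batch label. Deviations from the treatment means correlated at r = -0.14 to 0.45 between libraries of the same number (mean 0.25) and at a mean of -0.041 between different numbers. Over the 34 genes alone, the mean for the same number was 0.086, with a range of -0.65 (pair 4) to 0.42 (pair 5). Other alternatives were DESeq2 1.42.0 with and without the block, limma-voom (3.58.1), relative log expression (RLE) size factors, library totals, no filter on low counts, and leaving out each library or pair.

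The 34 genes, the marker lists and the gene lists were chosen with earlier results of these data known. Full values were given for the most abundant gene per length of each functional group, for genes with an unadjusted p under 0.05 with or without the block, and for the largest and smallest fold change. Outside the group, the 10 genes most correlated with its mean were named, and from each gene list up to 4 of the most abundant and any under 0.05. Relations between levels across libraries were tested with two-sided permutation tests. In the ductal list, 1 gene is not reported here and was left out of all values. Columns of gene annotation in the table supplied names, lengths and coordinates, and promoter windows came from RefSeq.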

Additional observations from a re-analysis of the deposited data

Results flagged for a closer look

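Among 72 groups of 7 libraries (34 genes, their sum and the ratio of MHC class II to C1q in each treatment), 7 held a library that stood far from the other 6 of its treatment by Dixon's criterion for 7 values. Chance gives such a gap in about 1 of 20 groups. The 72 groups share the same libraries and genes that move together, so they are not independent. The 7 of 72 therefore cannot be set against this rate. All 7 fell on 2 libraries. DMSO replicate 1 was high in Cd53 (316 CPM), Fcer1g (101 CPM), C1qb (408 CPM, others 233 to 305) and Csf1r (252 CPM, others 132 to 183). Adjudin replicate 4 was low in Mrc1 (25.6 CPM, others 42.8 to 54.0), Cd74 (147 CPM, others 288 to 394) and H2-Ab1 (71.2 CPM, others 132 to 162).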

How the results depend on the processing

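No macrophage gene was called under any of the alternatives run. The number at unadjusted p under 0.05 was 2, and it rose to 9 with the replicate block and to 11 with DESeq2 and the block. It ranged from 0 (without pair 3) to 4 when libraries or pairs were left out. With the block, leaving out pairs 1 to 7 in turn, which was added after seeing the data, gave 5, 7, 4, 6, 9, 12 and 11 genes. The median log2 fold change stayed below 0 throughout, between -0.27 and -0.10 with libraries or pairs left out and between -0.28 and -0.11 with the block and a pair left out. The ratio of the summed level was 0.813 to 0.944 over the same settings and 0.880 without Lyz2. The median correlation between the genes moved from 0.52 to 0.25 without the libraries of highest and lowest sum, which are the most extreme ones by construction.

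The log2 fold changes of 24 of the 34 genes kept their sign in every alternative. Cd74, at 0.0033 in the main test, was -0.018 with the replicate block, -0.016 with DESeq2 and the block and -0.041 with limma-voom. With libraries or pairs left out, the 10 genes that changed sign spanned -0.20 to 0.078 (Cd68), -0.23 to 0.00077 (Adgre1), -0.15 to 0.19 (Trem2), -0.21 to 0.049 (Ms4a7), -0.12 to 0.13 (Cd74), -0.21 to 0.062 (H2-Aa), -0.21 to 0.051 (H2-Ab1), -0.061 to 0.26 (Pf4), -0.23 to 0.061 (Cd53) and -0.27 to 0.019 (Cd52). All 10 had a main log2 fold change within 1 SE of 0. The cause of these changes was not tested. Folr2 and Cd163 had the fewest reads. For the summed level, the SD between libraries, which takes no account of the pairs, was larger than the difference between treatments.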
